A study of Drosophila melanogaster with 12 samples.

Results

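The 10 genes described here, mael, armi, piwi, aub, AGO3, zuc, spn-E, krimp, vas and squ, belong to the piRNA pathway of Drosophila melanogaster and are taken by name, with no threshold on their values, although the list was drawn up with earlier results of these data known. They are 10 of the 12549 genes named by at least 1 probe set of the array, and 11 probe sets carry their names. The values come from 12 single-colour Affymetrix arrays of brain RNA from females aged 3 days, with 4 arrays per genotype and about 20 brains, without the eyes, the lamina and the outer medulla, pooled for each array. The cDNA was amplified before labelling. All flies carried elav-GAL4, a driver active in neurons, and expressed a DsRed reporter from a UAS transgene, with any repeat placed in the reporter's 3'UTR. In CAG100 the reporter carried 100 CAG units and was present in 5 copies (elav-GAL4; UAS-DsRed-CAG100 (5x)). In CAA/G105 it carried an interrupted CAA and CAG run and was present in 2 copies (elav-GAL4; UAS-DsRed-CAA/G105 (2x)). In CAG0 it carried no repeat and was present in 1 copy (elav-GAL4; UAS-DsRed-CAG0). Copy numbers were set so that reporter mRNA levels matched, according to the series text. The repeat and the number of transgene copies differ together between the genotypes and cannot be told apart.

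piRNAs are small RNAs that guide Argonaute proteins of the Piwi class to transposon transcripts. Long precursors are cut at the surface of mitochondria, and the products are amplified by reciprocal cutting in the nuage, a granule around the nuclei of germ cells. Piwi itself enters the nucleus and silences transposons at the level of transcription. The pathway is best known from the fly ovary and testis, and the brain holds no germ cells.

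Of the 10 genes, mael and armi alone were above background in these brains. Of the 11 probe sets, 2 reached log2 4 on all 12 arrays, those of mael and armi, and the other 9 lay under log2 4 on every array. The level of log2 4 is a fixed threshold, since the table holds no detection calls. Of all 18769 probe sets other than controls, 45.8% reached it on all arrays and 50.9% on none. At a threshold of log2 3 or of log2 5 the same count of 2 of 11 was above it in all 3 genotypes. The gene mael encodes an HMG-box protein that acts with Piwi in silencing, and armi encodes an RNA helicase that feeds precursors into processing.

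The Piwi class Argonautes were at the floor of the scale in all 3 genotypes. The probe set of piwi read 2.45 to 2.55 over the 12 arrays. Those of aub and AGO3, the cytoplasmic pair that amplify piRNAs by reciprocal cutting, read 2.16 to 2.45 and 2.22 to 2.52. For zuc, the mitochondrial endonuclease that cuts precursors, the range was 2.06 to 2.08. These are log2 signals near the lowest value of the table, 1.75, so no difference between genotypes is given for them.

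Among the genes of the nuage, spn-E, a helicase with a Tudor domain, read 2.18 to 2.21 and krimp, a Tudor domain protein, read 2.13 to 2.16. The 2 probe sets of vas, the germline DEAD-box helicase, read 2.25 to 2.29 and 2.10 to 2.12. The first of them also names the gene wwk. The highest readings below the threshold were those of squ, a nuage protein that binds Aub, at 2.59 to 3.39.

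**Figure D1:**
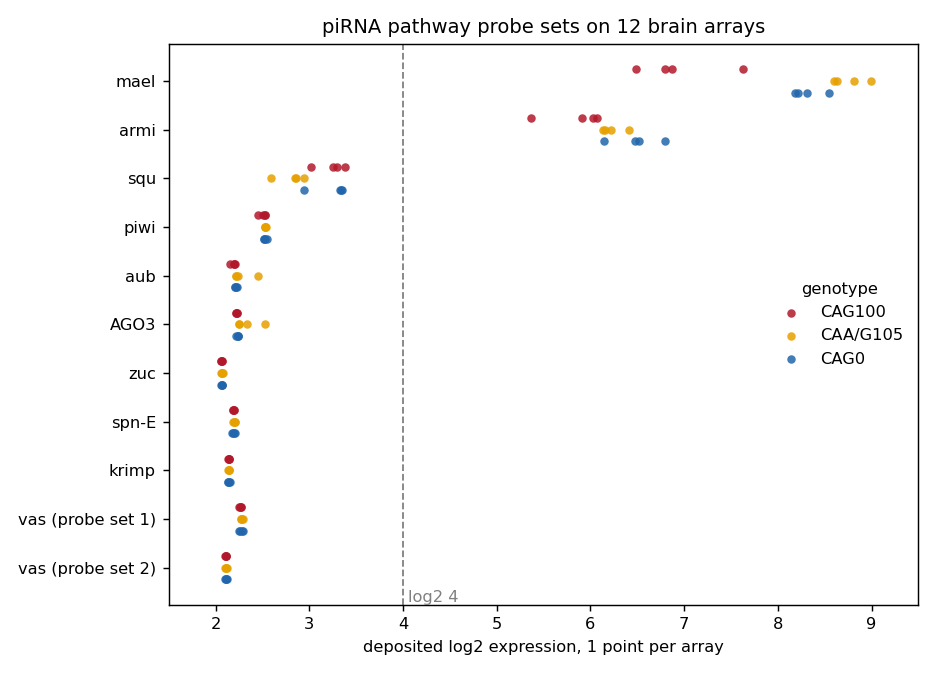
Deposited log2 expression of the 11 piRNA pathway probe sets on 12 brain arrays, 1 point per array, with CAG100, CAA/G105 and CAG0 drawn as separate rows of points for each probe set. The points of mael and armi lie right of the dashed line at log2 4 on all arrays, and those of the other 9 probe sets lie left of it.

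The markers of brain tissue were present, beside those of other tissues. All 9 measured neuronal genes and all 7 measured glial genes were above log2 4 on every array. Of these, elav averaged 13.69 ± 0.03 on CAG100 arrays, 13.73 ± 0.05 on CAA/G105 arrays and 13.77 ± 0.08 on CAG0 arrays (SD, n = 4 each). In CAG100 against CAG0, the neuronal gene VAChT and the glial gene alrm were called lower and none higher. In CAG100 against CAA/G105, VAChT and the glial genes alrm and repo were lower and none higher. In CAA/G105 against CAG0, the glial genes moody and repo were higher and none lower. All 5 measured photoreceptor genes also lay above log2 4 on every array (Arr2 at 13.5 to 14.4), although the eyes were removed, as did 10 of 11 haemocyte genes and 5 of 8 fat body genes. No photoreceptor gene passed in any comparison. Of 10 tested haemocyte genes none passed in CAG100 against CAG0, 4 were lower in CAA/G105 than in CAG0 and 3 higher in CAG100 than in CAA/G105. Of 6 tested fat body genes, 1 was higher in CAG100 than in CAG0 (Lsd-1), and 2 than in CAA/G105 (Lsd-1 and Yp3). None was called in CAA/G105 against CAG0. Another gene of that list, Lsp2, averaged lower than in CAG0 without passing, by -2.35 in CAG100 (limma adjusted p = 0.0507) and -2.18 in CAA/G105 (0.0845). The median of the 6 in CAG100 against CAG0 was 0.16. Of all tested probe sets, 18.3% were called in CAG100 against CAG0, 13.2% in CAA/G105 against CAG0 and 20.8% in CAG100 against CAA/G105. Of 4 tested muscle genes none passed in CAG100 against CAG0, where the flight muscle gene fln differed by -0.02 (limma adjusted p = 0.919). The median log2 difference of the 4 was -1.04 in that comparison, as Tm2 (-1.67), up (-1.50) and Mlc2 (-0.59) averaged lower without passing. In CAA/G105 against CAG0 only fln was called, lower by a log2 difference of -1.96 (limma adjusted p = 6.91e-08). The median difference of the 4 was 0.06 there, so fln does not stand for the list. In CAG100 against CAA/G105 1 was called, fln, as higher (1.94, limma adjusted p = 7.14e-08). The other tested muscle genes averaged lower there without passing (Tm2 -1.99, up -1.92 and Mlc2 -0.39). With a median of -1.15 over the 4, fln does not stand for the list in this comparison either. The part of these tissues in the results was not tested. Of 20 measured germline and ovary genes, 14 lay under log2 4 on all arrays. Another 5 (bcd, grk, orb, stau and Vm32E) lay above it on all arrays, and of these Vm32E was called higher in both repeat genotypes than in CAG0 and none lower. The remaining gene, osk, which directs germ plasm assembly in the oocyte, read 5.77 and 8.89 on CAG0 replicates 3 and 4 and 2.34 to 2.39 on the other 10 arrays. The mean log2 level over the 20 genes was 3.82 to 3.94 on CAG100 arrays, 3.85 to 3.93 on CAA/G105 arrays and 3.79 to 4.36 on CAG0 arrays, with 4.02 and 4.36 on replicates 3 and 4. Results on mael and armi are therefore also given without those 2 arrays, and the part of ovary RNA in them was not tested. The gene Akh, whose adipokinetic hormone is made in the corpora cardiaca next to the brain, was near the floor on CAG100 replicates 1 and 3 and CAA/G105 replicate 3 (2.06 to 2.43), and results are likewise given without those 3 Akh-low arrays. The labels call the 4 arrays of a genotype independent replicates, so p-values measure the spread between these pools, and the small number of arrays limits the precision.

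The series text asks first which genes respond to the pure repeat, in CAG100 against CAG0. Expression of mael was 7.62, 6.49, 6.79 and 6.87 on the 4 CAG100 arrays, against 8.18, 8.31, 8.21 and 8.54 on the 4 CAG0 arrays. All CAG100 arrays lay below all CAG0 arrays, and CAG100 replicate 1 lay closest to them. In the fit over all tested probe sets the log2 difference was -1.37 ± 0.20 (SE, limma adjusted p = 0.000558), a level 2.58-fold lower in CAG100. In RNA from pooled brain tissue, fewer cells that express a gene and less of its RNA per cell cannot be told apart.

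Expression of armi was 5.91, 5.37, 6.07 and 6.03 on the CAG100 arrays, against 6.47, 6.80, 6.15 and 6.51 on the CAG0 arrays. The arrays did not overlap, although the highest CAG100 array and the lowest CAG0 array, the third replicate of each, were only a short way apart. The log2 difference was -0.64 ± 0.17 (limma adjusted p = 0.0224), 1.56-fold lower in CAG100. This call was less firm than that of mael: it was lost without CAG100 replicate 2 (-0.48, adjusted p = 0.0547), without CAG0 replicate 2 (-0.53, adjusted p = 0.0658) and without CAG0 replicate 4 (-0.63, adjusted p = 0.0564). Over all alternatives its adjusted p lay between 0.00701 and 0.0763.

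Both members that were tested thus passed as lower in CAG100 than in CAG0, where 10.4% of all 8966 tested probe sets were called lower, 7.86% higher and 18.3% in either direction. Without any filter 1 member, mael, was called, against 6.73% of all 18769 probe sets. All CAG100 arrays lay below all CAG0 arrays for 11.5% of tested probe sets. Among all tested probe sets mael ranked 286 of 8966 by p and 198 by the size of its difference, and armi ranked 1121 and 695. Without CAG0 replicates 3 and 4 the difference of mael was -1.30 (adjusted p = 0.00917) and that of armi -0.79 (adjusted p = 0.0244). Without the 3 Akh-low arrays, mael differed by -1.63 (adjusted p = 0.000368), and armi by -0.79 with its call lost (adjusted p = 0.0537).

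**Figure D2:**
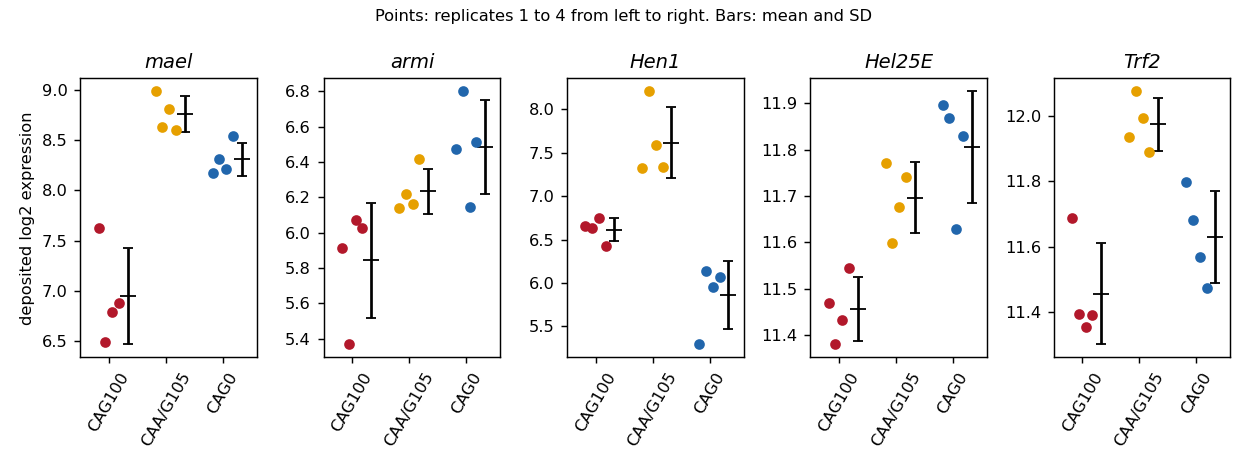
Deposited log2 expression of mael, armi, Hen1, Hel25E and Trf2 in CAG100, CAA/G105 and CAG0, each panel on its own scale that does not start at 0; points are single arrays and bars give mean and SD over 4 arrays. The CAG100 points of mael lie below those of both other genotypes, and the CAA/G105 points of Hen1 lie above both.

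The second comparison sets the interrupted repeat, which the series text calls non-toxic, against CAG0. In it mael was not called. Expression was 8.99, 8.63, 8.81 and 8.60 on the CAA/G105 arrays, against 8.18 to 8.54 on the CAG0 arrays. Every CAA/G105 array lay above every CAG0 array, by a narrow margin between CAA/G105 replicate 4 and CAG0 replicate 4. CAA/G105 arrays lay wholly above CAG0 arrays for 7.96% of tested probe sets. The log2 difference of 0.45 ± 0.20 did not pass (95% interval 0.01 to 0.88, limma adjusted p = 0.177). It passed in 2 alternatives, the fit of these 2 genotypes alone (adjusted p = 0.0439) and the fit without CAG100 replicate 1 (adjusted p = 0.0364), over a range of 0.0364 to 0.347.

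Expression of armi was 6.14, 6.22, 6.16 and 6.42 on the CAA/G105 arrays, against 6.15 to 6.80 on the CAG0 arrays. The arrays of these genotypes overlapped, and the log2 difference was -0.25 ± 0.17 (95% interval -0.62 to 0.12, limma adjusted p = 0.404). Neither of the 2 tested members therefore passed in CAA/G105 against CAG0, where 13.2% of tested probe sets were called in either direction. At an unadjusted limma p under 0.05, 1 of them passed, mael. It ranked 2259 of 8966 by p, so at least 2259 tested probe sets passed at that level. Without any filter 4.94% of all probe sets were called. Without CAG0 replicates 3 and 4 mael differed by 0.52 (limma adjusted p = 0.218) and armi by -0.40 (0.21). Without the 3 Akh-low arrays mael differed by 0.43 (limma adjusted p = 0.114) and armi by -0.23 (0.554).

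In the direct comparison of both repeats, the CAG100 arrays of mael (6.49 to 7.62) all lay below the CAA/G105 arrays (8.60 to 8.99). The log2 difference was -1.81 ± 0.20 (limma adjusted p = 4.54e-05), a level 3.52-fold lower in CAG100. It ranked 194 of 8966 by p. The value was -2.06 (adjusted p = 0.000106) without the 3 Akh-low arrays. For armi the CAG100 arrays (5.37 to 6.07) also lay below the CAA/G105 arrays (6.14 to 6.42), but the log2 difference of -0.39 ± 0.17 did not pass (95% interval -0.76 to -0.02, limma adjusted p = 0.128). Thus 1 of 2 tested members was called lower in CAG100, against 10.5% of all tested probe sets. CAG100 arrays lay wholly below CAA/G105 arrays for 13.2% of tested probe sets. Without any filter 8.44% of all probe sets were called in this comparison. Without the 3 Akh-low arrays armi differed by -0.56 (limma adjusted p = 0.175). Without CAG0 replicates 3 and 4 the limma adjusted p was 0.000261 for mael and 0.114 for armi.

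The order of mael was CAA/G105 (8.76 ± 0.18), CAG0 (8.31 ± 0.16) and CAG100 (6.94 ± 0.48; SD, n = 4 each), with only the step from CAG0 to CAG100 past the test. The SD of CAG100 was the widest of the 3, with replicate 1 at 7.62 and the other arrays at 6.49 to 6.87. The order of armi was CAG0 (6.48 ± 0.27), CAA/G105 (6.23 ± 0.13) and CAG100 (5.84 ± 0.33), and neither step between neighbours passed. A call of lower in CAG100 than in each of the other genotypes was made for 425 of 8966 tested probe sets (4.74%), mael among them. The comparisons with CAG0 share the same 4 CAG0 arrays. The gene mael has 1 probe set, whose name ends in _s_at, the array maker's mark for probes that match more than a single transcript.

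**Figure D3:**
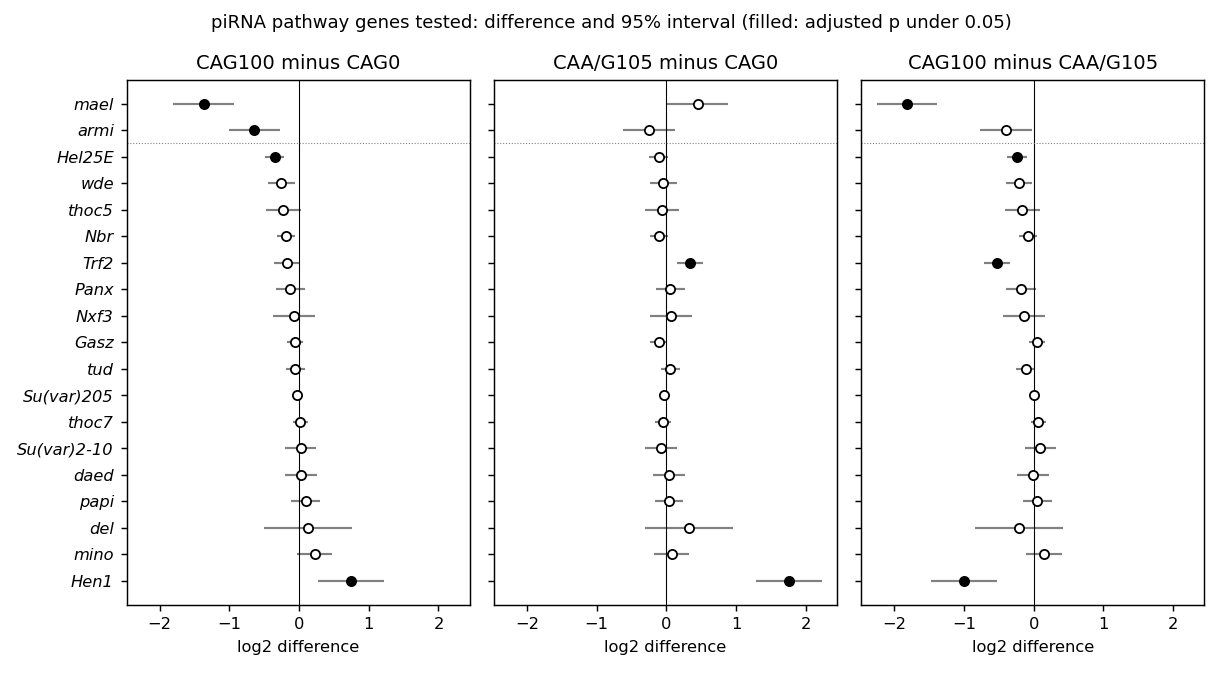
Log2 differences with 95% intervals for the 2 tested members (above the dotted line) and 17 further tested genes of the piRNA pathway in CAG100 minus CAG0, CAA/G105 minus CAG0 and CAG100 minus CAA/G105; filled points have a limma adjusted p under 0.05. mael and armi have the lowest values in the first panel, and Hen1 has the highest value in the first and second panels.

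A wider list of the pathway held 28 measured genes, of which 17 lay above log2 4 on all arrays and were tested, 10 lay below it on all arrays and vret was mixed. Those under it were rhi, cuff, moon, nxf2, SoYb, BoYb, fs(1)Yb, shu, tej and qin. Genes of the same steps fell on both sides: rhi and cuff, which bind piRNA clusters in the germline, lay under it, while del, their partner, read 5.57 to 7.0 over the 12 arrays. Panx, which acts with Piwi in nuclear silencing, read 6.32 to 6.73. The other genes above it were the Tudor domain gene tud, the mitochondrial genes Gasz, papi, daed and mino, the export genes Nxf3, thoc5, thoc7 and Hel25E, the chromatin genes wde, Su(var)2-10 and the gene of HP1, and Nbr, Hen1 and Trf2.

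Among the 17 tested genes, 1 was higher and 1 lower in CAG100 than in CAG0, beside 7.86% and 10.4% of all tested probe sets, with a median log2 difference of -0.06 beside -0.03. In CAA/G105 against CAG0, 2 were higher and none lower, beside 5.49% and 7.72% of all tested probe sets. In CAG100 against CAA/G105, 3 were lower and none higher, beside 10.5% and 10.4%, with a median of -0.11 beside -0.02. The genes behind these counts were Hen1, Hel25E and Trf2.

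Hen1 encodes the methyltransferase that protects the ends of piRNAs and siRNAs. Its levels were 6.65, 6.63, 6.74 and 6.43 on the CAG100 arrays, 7.33, 8.21, 7.59 and 7.34 on the CAA/G105 arrays and 5.29, 6.14, 5.96 and 6.07 on the CAG0 arrays. By its means Hen1 was highest in CAA/G105, as mael was, but lowest in CAG0, where mael was not. The log2 difference was 0.75 ± 0.22 in CAG100 against CAG0 (limma adjusted p = 0.032) and 1.75 ± 0.22 in CAA/G105 against CAG0 (limma adjusted p = 0.000156). The first of these calls was lost with no filter (adjusted p = 0.0901), without CAG0 replicate 1 (0.56, adjusted p = 0.0723), without CAG100 replicate 1 (0.0544), 2 (0.0733) or 3 (0.0824), without CAG0 replicates 3 and 4 (0.0533) and without the 3 Akh-low arrays (0.198), the adjusted p reaching from 0.0132 to 0.198. In CAG100 against CAA/G105 it was -1.0 ± 0.22 (limma adjusted p = 0.00626), and the call was lost without the 3 Akh-low arrays (adjusted p = 0.062).

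Hel25E, the fly UAP56, is an RNA helicase of mRNA export that also carries piRNA cluster transcripts to the nuage. The mean was 11.46 ± 0.07 for CAG100, 11.70 ± 0.08 for CAA/G105 and 11.81 ± 0.12 for CAG0 (SD, n = 4 each). The difference was slight but all CAG100 arrays (11.38 to 11.54) lay below all CAG0 arrays (11.63 to 11.90), at -0.35 ± 0.06 (limma adjusted p = 0.00275). Against CAA/G105 it was -0.24 ± 0.06 (limma adjusted p = 0.0199), a call lost without CAG100 replicate 2 (0.0633) or 3 (0.052), without CAA/G105 replicate 1 (0.0513) or 4 (0.0508) and without the 3 Akh-low arrays (0.155), the adjusted p reaching from 0.00317 to 0.155.

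Trf2 encodes a basal transcription factor that also serves piRNA clusters in the germline. Over the 4 arrays it averaged 11.46 ± 0.16 for CAG100, 11.98 ± 0.08 for CAA/G105 and 11.63 ± 0.14 for CAG0 (SD, n = 4 each). As with mael, CAA/G105 was highest and CAG100 lowest. The log2 difference was 0.34 ± 0.09 in CAA/G105 against CAG0 (limma adjusted p = 0.0185) and -0.52 ± 0.09 in CAG100 against CAA/G105 (limma adjusted p = 0.00107), and that of CAG100 against CAG0 did not pass (-0.17 ± 0.09, adjusted p = 0.183). The call against CAG0 in CAA/G105 was lost without CAG0 replicate 4 (adjusted p = 0.0601), without CAA/G105 replicate 2 (0.0585) and without CAG0 replicates 3 and 4 (0.131). The call of CAG100 against CAG0 was made without CAG100 replicate 1 (-0.25, adjusted p = 0.0339).

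The readings of squ lay under log2 4 on every array, at 3.25, 3.29, 3.02 and 3.39 for CAG100, 2.59, 2.86, 2.85 and 2.95 for CAA/G105 and 2.95, 3.33, 3.35 and 3.34 for CAG0. The CAA/G105 readings were mostly the lowest, and CAA/G105 replicate 4 and CAG0 replicate 1 read nearly the same. These values are a description, and no difference is given for a probe set not above background in any genotype. A looser filter of log2 3 on at least 2 arrays was chosen after seeing the data. It admits squ only through the genotypes in which squ read higher. The gene vret is admitted by its CAG100 arrays too, but these read only 3.03 to 3.06, and vret lay under log2 4 on all arrays of both repeats. The calls of squ and vret under this filter are not used. Under that filter 18% of the probe sets tested were called in CAG100 against CAG0, 12.8% in CAA/G105 against CAG0 and 20.8% in CAG100 against CAA/G105.

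The gene vret, which encodes a Tudor domain protein of precursor processing, read 3.03 to 3.06 on the CAG100 arrays and 2.72 to 3.05 on the CAA/G105 arrays, against 3.59, 3.77, 4.12 and 4.64 on the CAG0 arrays. It reached log2 4 only on CAG0 replicates 3 and 4, the arrays with osk signal, and CAG0 replicates 1 and 2 also lay above all arrays of the repeats. No difference is given, and the part of ovary RNA in these readings was not tested.

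The targets of the pathway could be read only in part. No probe set carried the name of a transposon on the list of families searched. A single probe set names 13 genes of the Stellate repeat family, which piRNAs silence in the male germline, and it read 1.96 to 1.98 on all arrays.

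The siRNA and microRNA pathways, which act in somatic cells, had all 11 measured genes above log2 4 on every array. In CAG100 against CAG0, 4 of 11 were lower and none higher, beside 10.4% and 7.86% of all tested probe sets, with a median log2 difference of -0.08 beside -0.03. In CAA/G105 against CAG0 none passed in limma, and Dcr-2 passed in 6 of the 25 alternatives. At an unadjusted limma p under 0.05, 2 passed (Dcr-2 and Fmr1), a level met by at least 2259 of 8966 tested probe sets. In CAG100 against CAA/G105 2 were lower and none higher, beside 10.5% and 10.4%. The gene pasha, the partner of Drosha in cutting microRNA precursors, had the smallest p, with 8.41, 8.17, 8.20 and 8.62 on the CAG100 arrays, against 8.71 to 8.87 on the CAG0 arrays. Its log2 difference was -0.44 ± 0.10 (limma adjusted p = 0.00966) in CAG100 against CAG0. The others were Dcr-2, which makes siRNAs (-0.35 ± 0.10, limma adjusted p = 0.0349), drosha (-0.26 ± 0.07, 0.0285) and gw, an effector of microRNA silencing (-0.16 ± 0.05, 0.0411). In CAG100 against CAG0 the calls of Dcr-2, drosha and gw were lost in 10, 7 and 15 of the 25 alternatives, and that of pasha in 1. Those lower in CAG100 than in CAA/G105 were pasha (-0.44 ± 0.10, limma adjusted p = 0.00844) and drosha (-0.27 ± 0.07, 0.0216). Both of these calls were lost without the 3 Akh-low arrays (adjusted p = 0.0999 and 0.0815), and that of drosha in 3 of the 25 alternatives.

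The 5 genes whose values lay closest to those of mael over the 12 arrays were Dscam2, Ada2a, Kr, CG13325 and CG13895, out of 7669 tested probe sets that name 1 gene. Likeness was the root mean square difference of the values after subtracting each probe set's own mean, and it was 0.22 for Dscam2, a cell adhesion gene, and 0.31 to 0.34 for the other 4. Dscam2 had means of 6.20 ± 0.55 for CAG100, 7.95 ± 0.23 for CAA/G105 and 7.50 ± 0.17 for CAG0 (SD, n = 4 each). These genes were chosen for their likeness to mael on the same arrays, so their low CAG100 values follow from the choice and are given with no test. Ada2a, a subunit of a histone acetyltransferase complex, and Kr, a zinc finger transcription factor, also had CAA/G105 highest and CAG100 lowest. CG13895 had a mean of 8.13 in CAA/G105 and 8.19 in CAG0, so its likeness rests on the low CAG100 arrays. Ranking by Pearson correlation in place of this measure kept 1 of the 5 probe sets, that of Dscam2, and gave a second probe set of Dscam2 the highest value (r = 0.97 over the 12 arrays, a description that follows the genotype means). That second probe set had means of 6.67 for CAG100, 11.3 for CAA/G105 and 10.6 for CAG0.

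**Figure D4:**
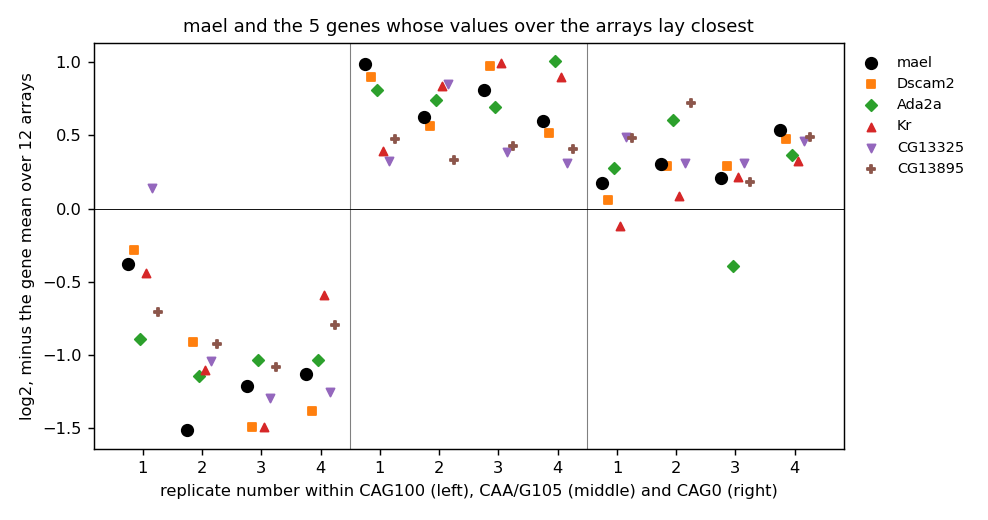
Log2 values of mael and the 5 genes closest to it, each minus its own mean over 12 arrays, with 1 column of points per array. The CAG100 points of mael lie below 0 and those of CAA/G105 and CAG0 above it, and CG13325 on CAG100 replicate 1 is the only CAG100 point above 0.

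The members lie on 4 chromosome arms, with piwi, aub, zuc, vas and squ on 2L, mael, armi and AGO3 on 3L, spn-E on 3R and krimp on 2R. Among the 5 nearest tested genes on each side of mael none passed in CAG100 against CAG0, with log2 differences from -0.25 to 0.82 and limma adjusted p-values down to 0.061, beside 18.3% of all tested probe sets. In CAA/G105 against CAG0, 1 was higher and 2 lower, beside 5.49% and 7.72% of all tested probe sets. One of the lower genes was CG11425 (-3.59 ± 0.35, limma adjusted p = 2.19e-05). In CAG100 against CAA/G105, 2 were higher and 2 lower, beside 10.4% and 10.5%, with log2 differences from -0.41 to 3.39. Of the 10 nearest tested genes of armi, 2 were higher and 2 lower in CAG100 than in CAG0, beside 7.86% and 10.4%. Among the lower was its neighbour CycJ (-0.50 ± 0.15, limma adjusted p = 0.0437), which was 1.47 ± 0.15 higher in CAA/G105 than in CAG0 (limma adjusted p = 3.61e-05). For the neighbours of armi, 2 were higher and 2 lower in CAA/G105 than in CAG0. In CAG100 against CAA/G105, 3 of them were higher and 3 lower.

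**Figure D5:**
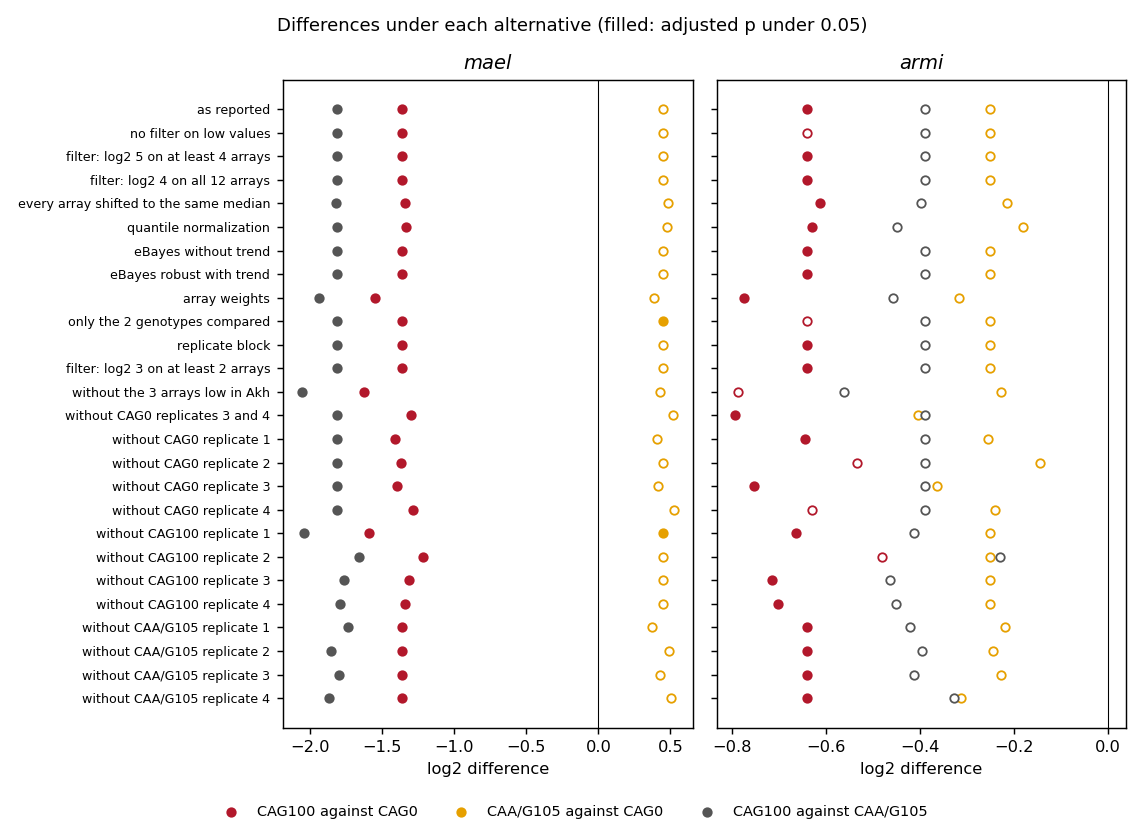
Log2 differences of mael and armi in the 3 comparisons as reported and under 25 alternatives, on separate scales; filled points have a limma adjusted p under 0.05. Both CAG100 comparisons of mael stay filled throughout, while CAG100 against CAG0 for armi is open under 6 alternatives.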

How the data were processed

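Per the submitters' processing notes the authors made the values with GCRMA, a background correction and normalization for Affymetrix arrays, and Partek; versions and settings are not given in the sources used here. Each deposited value is the log2 expression of a probe set on an array, used as it stands. Gene names came from the array's annotation, brought up to date with a gene table of assembly Release 6, used only for names and gene order. A symbol was matched first and a synonym only where a single gene held it, so sqh, which also lists squ as a synonym, was not taken. The genes AGO1, AGO2, Dcr-1, boot, arx, Hsp83 and egg of the lists were not analysed here.

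Probe sets entered the test when 4 or more of the 12 arrays read at least log2 4. The model held 3 genotype means and was run in limma 3.58.1 (R 4.3.3) with a mean-variance trend. Benjamini-Hochberg adjustment ran over all 8966 tested probe sets, with a threshold of 0.05, and the fit was checked on simulated data. Lists used the probe set of highest mean per gene.

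All probe sets of the members are reported. From the lists, genes that passed in any comparison were named, up to 8 per list, and besides them the 5 genes closest to mael, elav and Akh. Genes given as examples of a level, tissue markers named with or without a call other than elav and Akh, CG11425 and CycJ were picked with their values in view. The members and lists were chosen with earlier results of these data known. Alternatives covered the filter, scaling, variance model, array weights, arrays in the fit, a replicate block and leaving out arrays; leaving out the arrays with osk signal and the filter of log2 3 on at least 2 arrays were added after seeing the data.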

Additional observations from a re-analysis of the deposited data

Results flagged for a closer look

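Over 69 sets of 4 arrays (23 probe sets in 3 genotypes) Dixon's criterion picked out 4 arrays, and chance picks about 1 in 20 sets. For Trf2, CAG100 replicate 1 read 11.69 and the other CAG100 arrays 11.35 to 11.39. For squ, CAG0 replicate 1 read 2.948 and the other CAG0 arrays 3.327 to 3.354. For aub, CAA/G105 replicate 2 read 2.454 and the other CAA/G105 arrays 2.215 to 2.24, all far under log2 4. For CG13325, CAA/G105 replicate 2 read 7.854 and the other CAA/G105 arrays 7.314 to 7.39.

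The ovary gene osk is no member of the pathway, but gave signal on 2 control arrays. Its first probe set read 5.766 and 8.892 on CAG0 replicates 3 and 4, against 2.34 to 2.392 on the other 10 arrays. Its second read 6.843 on CAG0 replicate 4. On that array the eggshell genes Cp15, Cp18 and Vm34Ca also had their highest values, 3.63, 3.99 and 3.11, all under log2 4. Other eggshell genes, Cp16 and Cp38, were near the floor there (1.89 and 1.90). The germline genes piwi, aub and vas stayed under log2 4 on CAG0 replicate 4. The part of ovary RNA in these readings was not tested.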

How the results depend on the processing

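Under the 25 alternatives no result of a named gene that passed changed sign, while 5 near 0 that did not pass did. Of 27 that passed, 14 kept the call in every alternative, mael against CAG0 and against CAA/G105 in CAG100 among them (adjusted p up to 0.00917 and 0.000763). Both counts include results of the 5 genes chosen for their likeness to mael, whose low CAG100 values follow from the choice. The counts are therefore no measure of how firm the other calls are. The count of members called in CAG100 against CAG0 was 2, and 1 with no filter, with only the 2 genotypes compared and without the 3 arrays on which Akh read under log2 4; leaving out each array in turn gave 1 to 2. In CAA/G105 against CAG0 it was 0, and 1 (mael) with only the 2 genotypes compared. Leaving out each array gave 0 to 1. In CAG100 against CAA/G105 it was 1, mael. With no filter, and with a filter of log2 3 on at least 2 arrays, squ also passed in both comparisons that include CAA/G105. Its readings lay under log2 4 on every array, so it is not counted here. The share of all probe sets called without a filter was 6.73%, 4.94% and 8.44% in the order of the 3 comparisons. Without those 3 arrays, with fewer arrays to test, 948 probe sets passed in CAG100 against CAG0 (1639 with all arrays) and 924 in CAG100 against CAA/G105 (1869). After median scaling 53.9% of calls in CAG100 against CAG0 were higher (43% as deposited), and mael differed by -1.34.

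Replicate numbers did not pair the arrays: deviations of same-numbered arrays correlated at r = -0.259 to 0.39, and in no comparison was every array closest to its own number. With the replicate block 1466, 1090 and 1730 probe sets passed, and members called were 2, 0 and 1; armi in CAG100 against CAG0 had adjusted p = 0.0464. The calls of squ rest on readings under log2 4. For the 9 probe sets under log2 4 a difference was not measurable with confidence on these arrays.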

Other observations

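In genes of the wider pathway with more than 1 tested probe set, the probe sets did not always move together. A second probe set of Su(var)2-10, a SUMO ligase that acts with Piwi in silencing, averaged 6.51 in CAG100 and 7.14 in CAG0 (-0.62 ± 0.18, limma adjusted p = 0.0295), while the brighter one did not pass (0.02 ± 0.10, adjusted p = 0.906). A second probe set of Nxf3, an export factor of piRNA cluster transcripts, averaged 5.27 in CAA/G105 and 4.77 in CAG0 (0.50 ± 0.11, limma adjusted p = 0.00819), while the brighter one did not pass (0.07 ± 0.14, adjusted p = 0.821).

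Among the 20 germline and ovary genes, Vm32E, a vitelline membrane gene, had means of 6.61 ± 0.57 for CAG100, 5.92 ± 0.43 for CAA/G105 and 4.86 ± 0.43 for CAG0 (SD, n = 4 each), with log2 differences of 1.74 ± 0.30 (limma adjusted p = 0.00188) and 1.05 ± 0.30 (limma adjusted p = 0.0395) from CAG0. It was the only gene of that list called higher in CAG100 than in CAG0.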
